A study of Mus musculus with 14 samples.

Results

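The transcripts of the mouse mitochondrial genome were followed in liver after deletion of Mettl3 in hepatocytes. They were chosen by name, as every gene whose symbol begins with mt-, which gave 37 of the 54446 genes measured. These were 13 mRNAs, 2 ribosomal RNAs (rRNAs) and 22 transfer RNAs (tRNAs), and all 37 lie on the mitochondrial chromosome (M) in the GENCODE M21 annotation of GRCm38. Total RNA was sequenced from flash-frozen livers of C57BL/6 mice aged 5 weeks. The 6 controls carried a floxed Mettl3 gene (Mettl3 floxed). The 8 knockouts carried the same floxed gene and Alb-Cre, a recombinase under the albumin promoter, which is active in hepatocytes and their fetal precursors. Whether other liver cells also lost Mettl3 was not tested. Mettl3 is the enzyme that places N6-methyladenosine on nuclear RNA. The comparison asks how liver RNA differs once the enzyme is lost, and since the labels do not say that each library is a separate animal, p-values measure only the spread between these libraries.

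The mitochondrial genome is a small circle that is transcribed from both strands into long precursors. Enzymes cut most tRNAs out of the precursor, and this frees the mRNAs and rRNAs that lie between them. The mRNAs encode subunits of respiratory complexes I, III and IV and of ATP synthase, which also need many subunits from nuclear genes, while the rRNAs and tRNAs serve translation inside the organelle. Liver is rich in mitochondria. In the annotation the heavy-strand genes (plus strand) were 12 mRNAs, both rRNAs and 14 tRNAs, and the light-strand genes (minus strand) were mt-Nd6 and 8 tRNAs. The strand setting of the counting is not given. Whether the values of mt-Nd6 and of other genes include reads of the opposite strand was not tested.

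The 3 mitochondrial genes that passed the test were tRNA genes of the heavy strand, and their sequences are shown with the anticodon in capitals, as DNA, from the GENCODE M21 transcripts. They are the tRNAs for isoleucine (mt-Ti, chrM:3706-3774), arginine (mt-Tr, chrM:9808-9875) and histidine (mt-Th, chrM:11546-11612), all on the plus strand of GRCm38.
mt-Ti: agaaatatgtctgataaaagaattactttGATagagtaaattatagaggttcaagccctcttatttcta
mt-Tr: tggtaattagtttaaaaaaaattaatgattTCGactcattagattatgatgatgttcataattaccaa
mt-Th: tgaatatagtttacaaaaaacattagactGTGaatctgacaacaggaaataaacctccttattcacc

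Reads of several mitochondrial mRNAs could also be given to nuclear copies, so the ends of a pair of genes are shown beside their copies. A stretch of chromosome 1 (chr1:24611535-24616197, GRCm38) holds 7 annotated pseudogenes on the minus strand, and 5 of these are identical to their mitochondrial gene over their matched length. The mt-Co2 gene differs from its copy Gm28661 only by the last 3 bases, in capitals, which the annotated copy lacks. The same holds for mt-Atp6 and its copy Gm10925.
mt-Co2: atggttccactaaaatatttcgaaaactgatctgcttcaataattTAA
Gm28661: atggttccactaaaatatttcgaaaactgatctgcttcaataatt
mt-Atp6: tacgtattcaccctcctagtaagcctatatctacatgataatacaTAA
Gm10925: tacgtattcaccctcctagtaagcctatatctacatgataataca
The copy of mt-Nd3, Gm28438, has 1 substitution over its 345 bases, T3C, counted from the first base of the gene and shown in capitals in the first 45 bases of each.
mt-Nd3: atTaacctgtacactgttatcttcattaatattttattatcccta
Gm28438: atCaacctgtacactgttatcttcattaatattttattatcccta

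Each gene had 1 normalised estimated count per library, called its value. Depth, in units of 1e6 estimated reads, was 11.1 to 33.8 per library. Mettl3 itself fell from 223 ± 23.7 (SD, n = 6) to 99.5 ± 15.7 (SD, n = 8), by limma (log2 change -1.17, SE 0.12, adjusted p = 1.32e-05). By Xist and Y-linked transcripts, replicates 1 to 4 of both groups were Y-positive and the others were Xist-high, and the Xist-high libraries were the shallower. Summed hepatocyte markers, which include albumin, were 713881 to 872510 among controls and 359563 to 658363 among knockouts. Of the 8 markers 6 were lower by limma. For this and the other marker counts, 11% of all genes tested were called lower and 11.5% higher. All the marker sums are of the deposited values, whose sum per library was itself lower in knockouts, as given below. Knockouts 6 and 7 had the lowest hepatocyte sums, 359563 and 362968. Of 5 cholangiocyte markers 3 were higher, with sums of 648 to 1221 among controls and 1046 to 3487 among knockouts. Of 5 liver endothelial markers 3 were lower. No tested marker of Kupffer cells, stellate cells, lymphocytes, red cells, muscle or brown fat passed. Of the red cell markers 5 of 6 were tested, of muscle 3 of 4 and of brown fat only 1 of 3. Muscle and brown fat are both mitochondria-rich. Summed muscle markers were 8267 in knockout 8, 3414 in knockout 4 and at most 833 elsewhere. Summed brown fat markers were 1279, 3333, 3918 and 1959 in Y-positive controls 1 to 4. In Xist-high controls 5 and 6 they were 43.1 and 76.6. They were 1234, 871, 64.6 and 928 in Y-positive knockouts 1 to 4, and 12.8 to 255 in Xist-high knockouts. Whether these sums reflect brown fat tissue was not tested. The part of the muscle and brown fat sums in the results was not tested. In whole liver, fewer cells of a type and less RNA per cell cannot be told apart.

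Mitochondrial mRNA took a similar share of most libraries in both groups and a larger one in knockouts 6 and 7. The 13 mRNAs summed to 3.84% ± 0.92 of a library's values in controls (SD, n = 6) and to 4.71% ± 1.99 in knockouts (SD, n = 8). The shares of controls 1 to 6 were 2.77%, 4.07%, 3.77%, 3.27%, 5.47% and 3.70%. The shares of knockouts 1 to 8 were 3.65%, 3.42%, 3.53%, 3.04%, 4.02%, 7.85%, 7.91% and 4.23%. Knockouts 6 and 7 were thus above every control, the other 6 knockouts lay within the control range, and without those libraries the knockout mean was 3.65% ± 0.43 (SD, n = 6). The rRNAs did not follow the same order. The 12S and 16S rRNAs together took 1.94% to 5.71% among controls and 3.25% to 9.17% among knockouts, with 4 knockouts above every control, at 6.03% in knockout 4, 6.75% in knockout 6, 9.17% in knockout 7 and 6.84% in knockout 8. All 37 genes took 14.6% and 17.1% in knockouts 6 and 7 and 5.73% to 11.1% in the other 12 libraries. Knockouts 6 and 7 were also the ones with the lowest hepatocyte sums, and had cholangiocyte sums of 2616 and 3487. Knockout 3, with an mRNA share of 3.53%, had a cholangiocyte sum of 3011 and the next lowest hepatocyte sum, 406320. The part of the marker sums in the mitochondrial share was not tested.

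**Figure D1:**
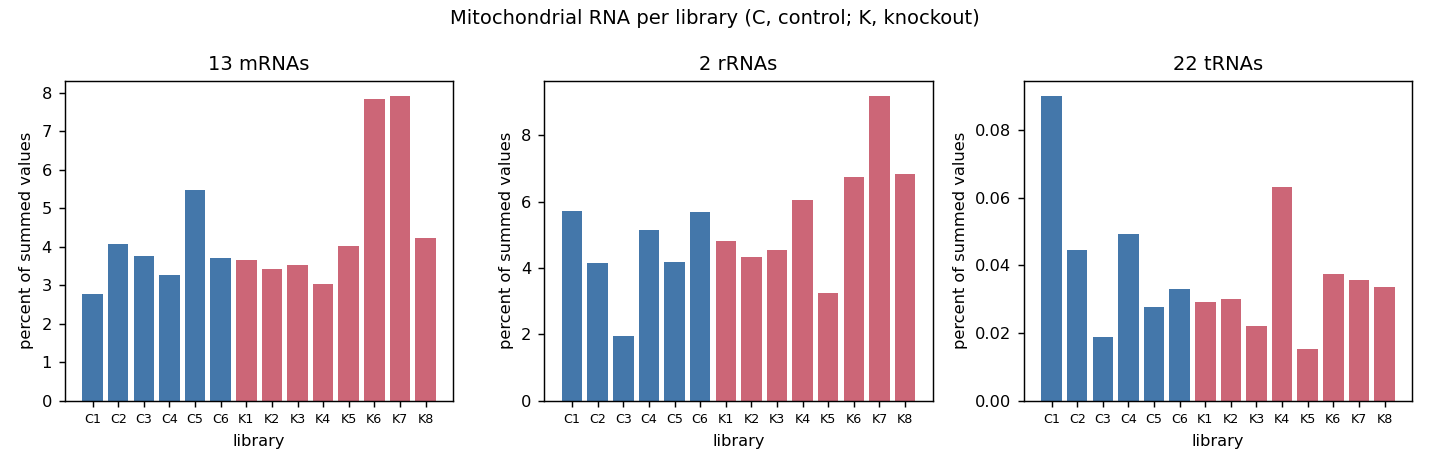
Percent of each library's summed values from the 13 mRNAs, the 2 rRNAs and the 22 tRNAs of the mitochondrial genome, with 1 bar per library (C1 to C6, controls in blue; K1 to K8, knockouts in red). The mRNA bars of knockouts 6 and 7, at 7.85% and 7.91%, stand above the other 12, and the highest tRNA bar is control 1, at 0.0899%.

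Gene by gene, 3 of the 37 fell and 0 rose in limma over all 14 libraries, and all 37 passed the filter on low values. Over the 23554 genes tested, 11% were called lower and 11.5% were called higher, so the members' counts were not above those shares. The log2 change was negative for 29 of the 37, with a median of -0.29 against 0.05 over all genes tested. Of the 13 mRNAs 0 passed, and at an unadjusted p under 0.05 there was 1 higher, mt-Nd1, and 0 lower. Of the 37 genes 0 had values in which the groups did not overlap, where 8.16% of all genes tested had.

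Among the mRNAs of complex I, the entry point of electrons from NADH, mt-Nd1 had the largest log2 change upward. Its values ran from 49454 to 76974 among controls (median 52458) and from 60472 to 182040 among knockouts (median 70144). Knockouts 6, 7 and 8 were above every control, and the other 5 lay within the control range. By limma the log2 change was 0.68 (SE 0.27, adjusted p = 0.084), and without knockouts 6 and 7 it was 0.34 (SE 0.15, adjusted p = 0.12). The other early complex I gene, mt-Nd2, ran from 57638 to 93790 among controls (median 64743) and from 59394 to 126437 among knockouts (median 64965). Its log2 change was 0.18 (SE 0.21, limma adjusted p = 0.57).

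The complex I genes farther along the heavy strand had changes below those of mt-Nd1. The mt-Nd3 log2 change was 0.35 (SE 0.23), that of mt-Nd4l -0.11 (SE 0.25), that of mt-Nd4 -0.33 (SE 0.23) and that of mt-Nd5 -0.30 (SE 0.23). The light-strand mt-Nd6 had -0.35 (SE 0.23). None of these 5 passed in limma, where the smallest adjusted p among them was 0.30. The values of mt-Nd5 ran from 72653 to 128712 among controls (median 105585) and from 54849 to 137468 among knockouts (median 74643), with knockouts 6 and 7 above every control and knockouts 2, 3, 4 and 5 below every control.

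For complex III, whose cytochrome b is the single subunit made in the organelle, mt-Cytb ran from 80042 to 167638 among controls (median 105681) and from 46948 to 139101 among knockouts (median 82762). Knockouts 1 to 4 were below every control and no knockout was above all of them. By limma the log2 change was -0.42 (SE 0.26, adjusted p = 0.28), the most negative of the 13 mRNAs. For complex IV, cytochrome c oxidase, mt-Co1 ran from 257031 to 342896 among controls (median 281852) and from 199866 to 436464 among knockouts (median 229197). Knockouts 6 and 7 were above every control, and the remaining 6 were below every control. The mt-Co1 log2 change was -0.15 (SE 0.23, limma adjusted p = 0.695). The ATP synthase genes mt-Atp8 and mt-Atp6, which share 43 bases (chrM:7927-7969, plus strand), had log2 changes of 0.04 (SE 0.31) and -0.19 (SE 0.22).

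Knockouts 6 and 7 changed which mRNAs passed. Without them, 4 of the 13 mRNAs were called lower by limma: mt-Cytb (log2 change -0.66, adjusted p = 0.047), mt-Nd4 (-0.58, adjusted p = 0.0365), mt-Nd5 (-0.55, adjusted p = 0.028) and mt-Nd6 (-0.58, adjusted p = 0.031). With 3 tRNAs this made 7 of 37 lower and 0 higher, against 10.3% of all genes called lower in the same fit. The median over the 13 mRNAs was then -0.34. Knockouts 6 and 7 had the highest mitochondrial mRNA sums of the knockouts, so leaving them out itself lowers the knockout means. These calls are thus not separate support for a fall. Without knockout 3 as well, 2 genes were lower, mt-Nd5 and mt-Te.

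**Figure D2:**
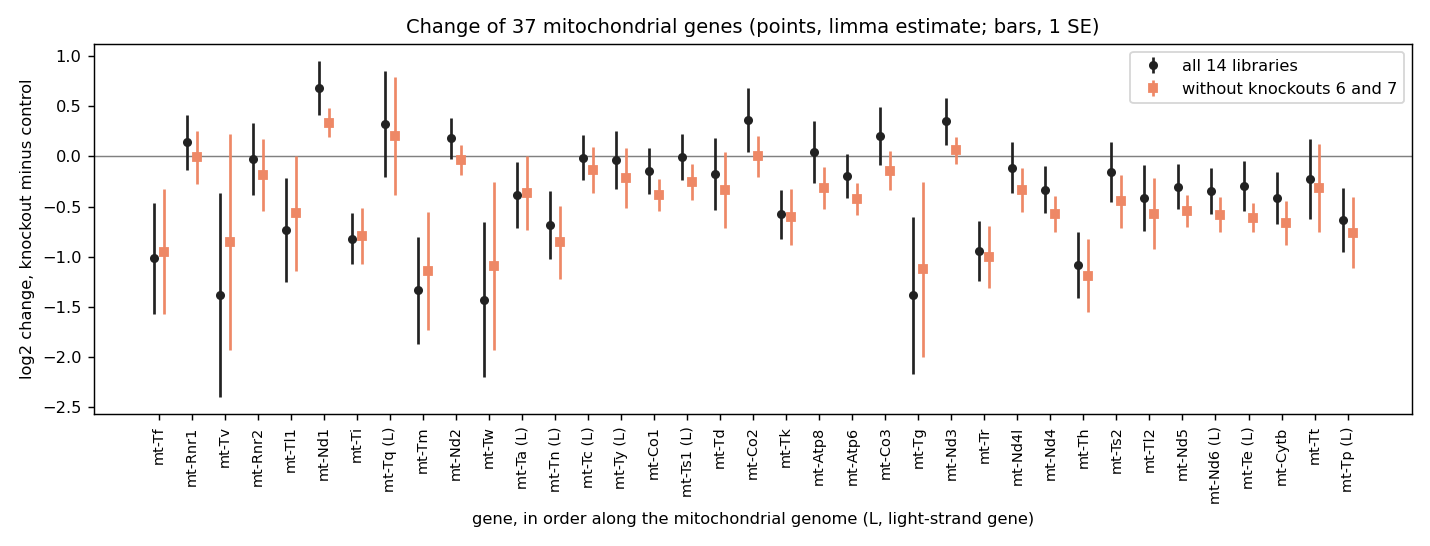
Log2 change (knockout minus control) of the 37 genes in their order along the genome, as limma estimates with bars of 1 SE, over all 14 libraries (black circles) and without knockouts 6 and 7 (orange squares). The change of mt-Nd1 is 0.68 over all libraries, that of mt-Cytb is -0.42, and most tRNA points lie below 0.

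The direction of the mRNA changes depended on the scale. The deposited values carry the authors' size factors, and the summed values per library were lower in knockouts, at 19.1 ± 1.37 in units of 1e6 (SD, n = 8), than in controls, at 24.1 ± 2.43 (SD, n = 6). When each library was instead divided by its own sum outside the mitochondrial and rRNA genes, the median over all genes tested went from 0.05 to 0.40 and the median over the 13 mRNAs from -0.11 to 0.24. Dividing by 1 factor per library moves all genes alike, so the gap between these medians is about the same on both scales by construction. Under quantile normalization, which does not move all genes alike, the median over the 13 mRNAs was 0.42 and that over all genes tested was -0.003. On the second scale, 2 of 37 genes were higher, mt-Nd1 (log2 change 1.03, limma adjusted p = 0.014) and mt-Nd3 (0.70, limma adjusted p = 0.043), and 0 were lower, where 33.9% of all genes tested were called higher.

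The make-up of the mitochondrial mRNA pool does not depend on the scale of a library, and here the groups separated for mt-Nd1. Each mRNA was taken as a percent of the summed 13 mRNAs, with the chromosome 1 copies added to their genes. The mt-Nd1 share in controls 1 to 6 was 5.66%, 4.99%, 5.15%, 5.25%, 5.69% and 5.61%. In knockouts 1 to 8 it was 7.01%, 8.59%, 9.93%, 9.91%, 7.66%, 10.98%, 10.57% and 9.24%. Every knockout was above every control, and the means were 5.39% ± 0.30 (SD, n = 6) and 9.24% ± 1.39 (SD, n = 8). By Xist class, the shares were 4.99% to 5.66% and 7.01% to 9.93% in Y-positive controls and knockouts, and 5.61% to 5.69% and 7.66% to 10.98% in Xist-high ones, which follows from the separation over all libraries.

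The mt-Nd2 share also did not overlap between the groups, at 6.21% to 6.93% among controls and 7.11% to 9.09% among knockouts. These were 2 of the 13 mRNAs. Of all genes tested, 2.29% had a value over the mitochondrial mRNA sum that was higher in every knockout than in every control. The genes tested are mostly nuclear, and the sum they were divided by was highest in knockouts 6 and 7. This percentage is thus not a like background for shares within the pool. The mt-Nd3 share was 0.73% ± 0.095 (SD, n = 6) in controls and 0.99% ± 0.14 (SD, n = 8) in knockouts, of which 6 were above every control.

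Genes near the far end of the heavy strand took the smaller shares in knockouts, though their groups overlapped. The mt-Cytb share was 10.6% ± 1.17 in controls (SD, n = 6) and 8.43% ± 1.34 in knockouts (SD, n = 8), and 7 of the 8 knockouts were below every control. The mt-Nd4 share was 7.66% ± 0.62 and 6.43% ± 0.46, also with 7 of 8 knockouts below every control. The mt-Nd5 share was 9.88% ± 1.02 and 8.47% ± 0.60, with 1 of 8 below every control. Light-strand mt-Nd6 went from 3.61% ± 0.28 to 3.02% ± 0.31, with 3 of 8 below every control. The ratio of mt-Nd1 to mt-Cytb, a pair without chromosome 1 copies that was chosen after the values were seen, was 0.459 to 0.618 among controls and 0.685 to 1.46 among knockouts.

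In the limma fit of values relative to the mitochondrial mRNA sum, 0 of 37 genes passed, where 5.48% of all genes tested did. The mt-Nd1 log2 change in that fit was 0.78 (SE 0.23, limma adjusted p = 0.053). In limma the variance of each gene is drawn toward that of genes of similar level, here all divided by the same sum. The SE and p-values of this fit therefore do not measure the spread of the mt-Nd1 share alone. Without knockouts 6 and 7, mt-Nd1 (0.69, SE 0.14, limma adjusted p = 0.0026) and mt-Nd3 (0.42, SE 0.14, limma adjusted p = 0.039) were called higher, where 23.7% of all genes tested were called higher. That share is mostly of nuclear genes over the mitochondrial sum, with a median log2 change of 0.39 against 0.02 over the 13 mRNAs. It is thus not a like background for shares within the pool, and the same holds for the 5.48% above. With knockout 6 or knockout 7 left out alone, mt-Nd1 was the 1 gene of the 37 that passed. In the Y-positive libraries alone the mt-Nd1 log2 change was 0.74 (limma adjusted p = 0.014), and in the Xist-high libraries alone it was 0.78 (limma adjusted p = 0.98, 2 controls and 4 knockouts). As given above, the mt-Nd1 shares of controls and knockouts did not overlap in either class. Over the 12 heavy-strand mRNAs, the log2 change of the level was lower for genes farther from mt-Nd1, with a Spearman rho of -0.69, or -0.73 with the copies added. This is a description across genes that share the same libraries, and genes are not independent replicates.

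**Figure D3:**
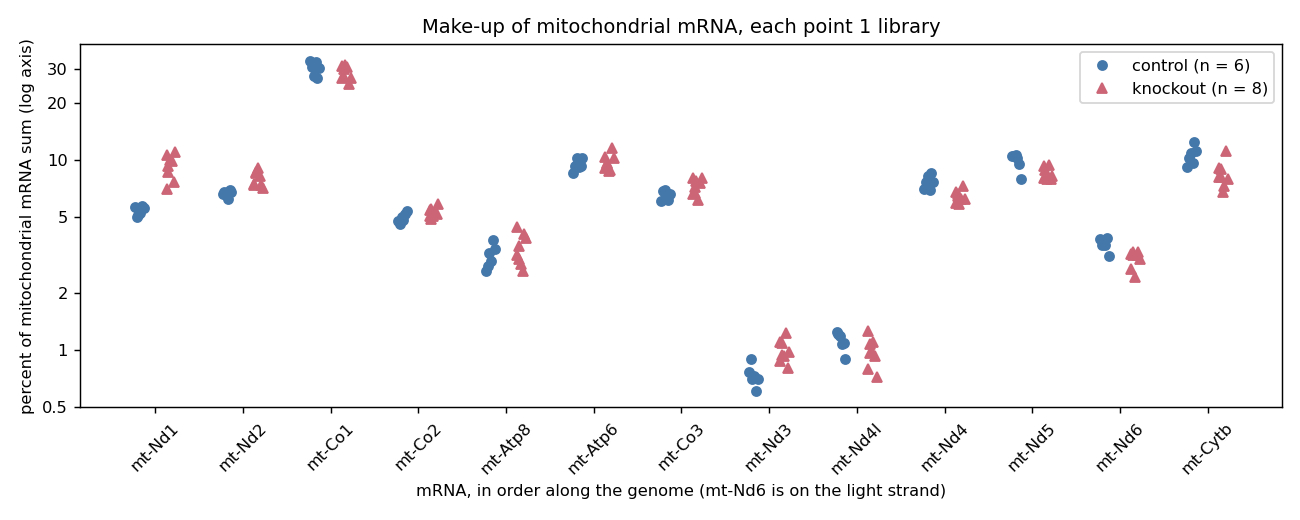
Each of the 13 mRNAs as a percent of the summed mitochondrial mRNA, copies included, on a log axis, with 1 point per library (blue circles, 6 controls; red triangles, 8 knockouts). The mt-Nd1 points are 4.99% to 5.69% among controls and 7.01% to 10.98% among knockouts, while the mt-Co1 points, 27.0% to 33.3% and 25.1% to 31.6%, overlap.

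Neither rRNA of the mitochondrial ribosome passed the test. The 12S rRNA, mt-Rnr1, ran from 210977 to 546769 among controls (median 433946) and from 288829 to 662360 among knockouts (median 424276), with a log2 change by limma of 0.14 (SE 0.27, adjusted p = 0.76). The 16S rRNA, mt-Rnr2, ran from 258068 to 1031820 among controls (median 685584) and from 283389 to 1031120 among knockouts (median 650981), with a log2 change by limma of -0.03 (SE 0.36, adjusted p = 0.97). Control 3 was lowest for both. The ratio of 16S to 12S rRNA was 1.62 ± 0.344 in controls (SD, n = 6) and 1.45 ± 0.276 in knockouts (SD, n = 8).

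Most tRNA genes had negative log2 changes, with the larger median on the heavy strand. Strand here is that of the annotated gene, since the strand setting of the counting is not given. The log2 change was negative for 14 of 14 heavy-strand tRNAs, with a median of -0.88, and for 7 of 8 light-strand tRNAs, with a median of -0.17. With libraries scaled to their sum outside mitochondrial and rRNA genes, 11 of 14 heavy-strand tRNAs were negative, with a median of -0.54, and 3 of 8 light-strand tRNAs were negative, with a median of 0.19. Only 3 of the 22 passed in limma. The tRNA genes are 59 to 75 bases long, and whether their values come from cut tRNAs or from precursors was not tested. Heavy-strand tRNAs summed to 1276 to 19034 among controls (median 5202) and to 701 to 8451 among knockouts (median 2326). Light-strand tRNAs summed to 2282 to 5808 among controls (median 3929) and to 1540 to 5179 among knockouts (median 3541). The groups overlapped for both sums.

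The 3 called genes were mt-Ti, mt-Tr and mt-Th, whose sequences are given above. The isoleucine tRNA mt-Ti, which follows mt-Nd1, ran from 62.4 to 163 among controls (median 113) and from 39.3 to 100.3 among knockouts (median 60.9), and 4 of 8 knockouts were below every control. Its log2 change was -0.82 (SE 0.25, limma adjusted p = 0.031). The arginine tRNA mt-Tr, which follows mt-Nd3, ran from 20.4 to 51.6 among controls (median 31.9) and from 7.25 to 28.8 among knockouts (median 18.2), with 5 of 8 knockouts below every control. Its log2 change was -0.94 (SE 0.30, limma adjusted p = 0.033). The histidine tRNA mt-Th, which follows mt-Nd4, ran from 441 to 2144 among controls (median 1008) and from 192 to 609 among knockouts (median 545), with 2 of 8 knockouts below every control. Its log2 change was -1.08 (SE 0.33, limma adjusted p = 0.026).

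Leaving out 1 library moved some of these calls across the threshold, while the log2 changes kept their sign. With each library left out in turn they were -1.32 to -0.86 for mt-Th, -0.98 to -0.70 for mt-Ti and -1.08 to -0.78 for mt-Tr. Leaving out control 1 or control 4 left 0 of 37 genes called by limma, with mt-Th at adjusted p = 0.064 and 0.054. Leaving out control 6 left mt-Ti alone, and leaving out knockout 3 or knockout 6 left mt-Th alone. With each library scaled to its sum outside mitochondrial and rRNA genes, the log2 changes of mt-Ti, mt-Tr and mt-Th were -0.47, -0.60 and -0.73, and none passed in limma, where the smallest adjusted p of the 3 was 0.089.

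Several heavy-strand tRNAs varied more between libraries than between groups. The valine tRNA mt-Tv, which lies between the rRNA genes, was 6013, 1182, 68.9, 2434, 359 and 529 in controls 1 to 6. In knockouts 1 to 8 it was 881, 747, 95.5, 2958, 60.0, 68.3, 146 and 572. Its highest value was 100-fold its lowest, and its log2 change of -1.38 had an SE of 1.01. The glycine tRNA mt-Tg ran from 185 to 7997 among controls and from 134 to 3226 among knockouts, with control 1 and knockout 4 the highest and control 3 and knockout 3 the lowest of their groups. The tryptophan tRNA mt-Tw had the most negative log2 change of the 22, -1.43 (SE 0.77, limma adjusted p = 0.20). With replicate number as a block, in libraries 1 to 6 of each group, mt-Tg and mt-Tw were called lower by limma and mt-Tv was not. The libraries high for these tRNAs were also high in nuclear rRNA, at 9.12% of values in control 1, 5.92% in control 4 and 6.98% in knockout 4, against 1.99% in knockout 6. Knockout 3, which was low for these tRNAs, had 5.07%, and the part of this in the tRNA values was not tested.

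On the light strand, the glutamate tRNA mt-Te passed where knockouts 6 and 7, or all Xist-high libraries, were left out. It ran from 841 to 1352 among controls and from 549 to 1719 among knockouts, with knockouts 6 and 7 above every control and 5 of 8 below every control. Its log2 change was -0.29 (SE 0.25, limma adjusted p = 0.43) over all libraries. It was -0.61 (limma adjusted p = 0.0096) without knockouts 6 and 7, a fit that leaves out its highest values. The glutamine tRNA mt-Tq was the 1 tRNA with a positive log2 change, 0.32 (SE 0.52).

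**Figure D4:**
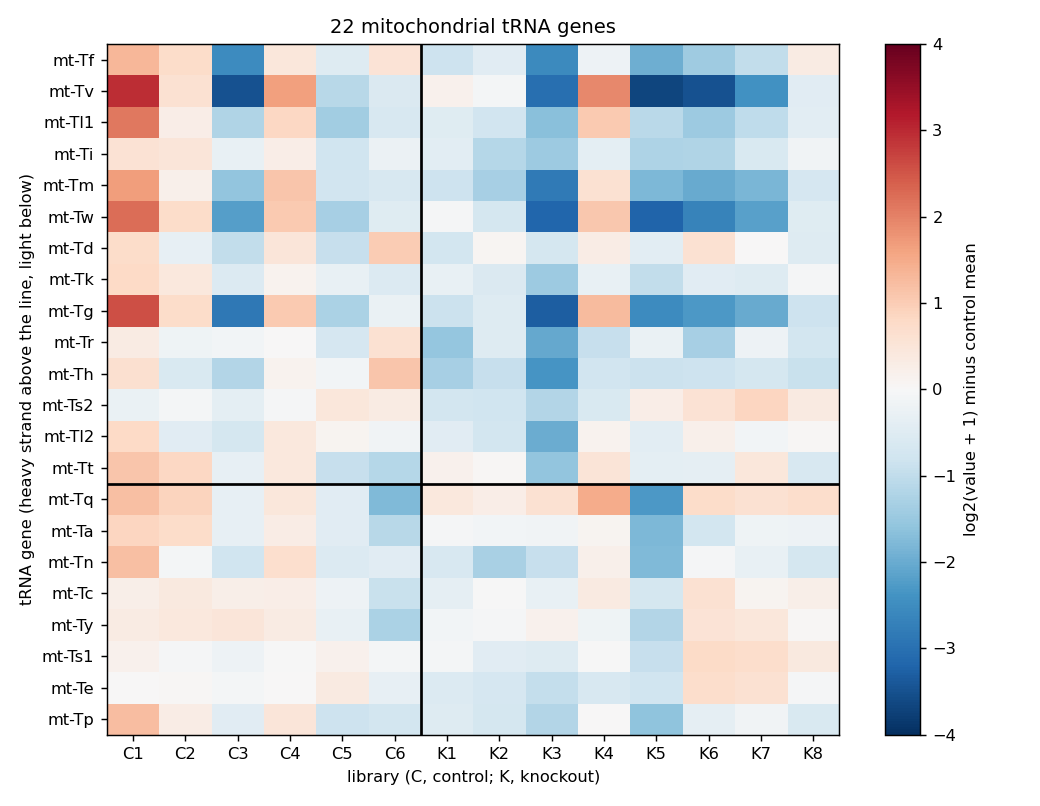
Log2(value + 1) of the 22 tRNA genes minus the control mean of each gene (colour, blue lower and red higher), with genes in rows and the 14 libraries in columns (C, control; K, knockout). Controls 1 and 4 and knockout 4 are red for many heavy-strand tRNAs, such as mt-Tv at 6013, 2434 and 2958, and knockout 3 is blue, with mt-Tv at 95.5.

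How reads were shared with the nuclear copies set the apparent level of several mRNAs. Gm28661 had 48324 ± 9296 in controls (SD, n = 6) where mt-Co2 itself had 3287 ± 1093, and the copy held 87.3% to 95.2% of the pair in the 14 libraries. Gm28437 held 71.4% to 80.9% of the pair with mt-Co3, and Gm29216 held 5.19% to 8.31% of the pair with mt-Co1, which it matches over the last 483 bases at 99.8% identity. With the copies added, the log2 changes were 0.01 for mt-Co2 (SE 0.25), 0.07 for mt-Co3 (SE 0.26) and -0.16 for mt-Co1 (SE 0.23), and none passed in limma, where the smallest adjusted p of the 3 was 0.66. Gm10222, named after its values were seen, held 3.17% to 49.995% of the pair with mt-Nd4l, and with it added the mt-Nd4l log2 change was -0.28 (SE 0.17, limma adjusted p = 0.25).

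For mt-Atp6, the copy passed the test and the sum of the pair did not. Gm10925, singled out after its values were seen, had values of 324, 4.83, 146 and 180 in controls 1 to 4 and 4016 and 4824 in controls 5 and 6. In knockouts 1 to 8 it had 4455, 2544, 2435, 4872, 10361, 41674, 34605 and 11686. Gm10925 was called higher by limma (log2 change 4.73, SE 1.23, adjusted p = 0.012), while the sum of the pair had a log2 change by limma of -0.04 (SE 0.26, adjusted p = 0.93). A read within the 678 bases that the pair shares cannot be told apart, so a separate change of this copy was not measured.

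**Figure D5:**
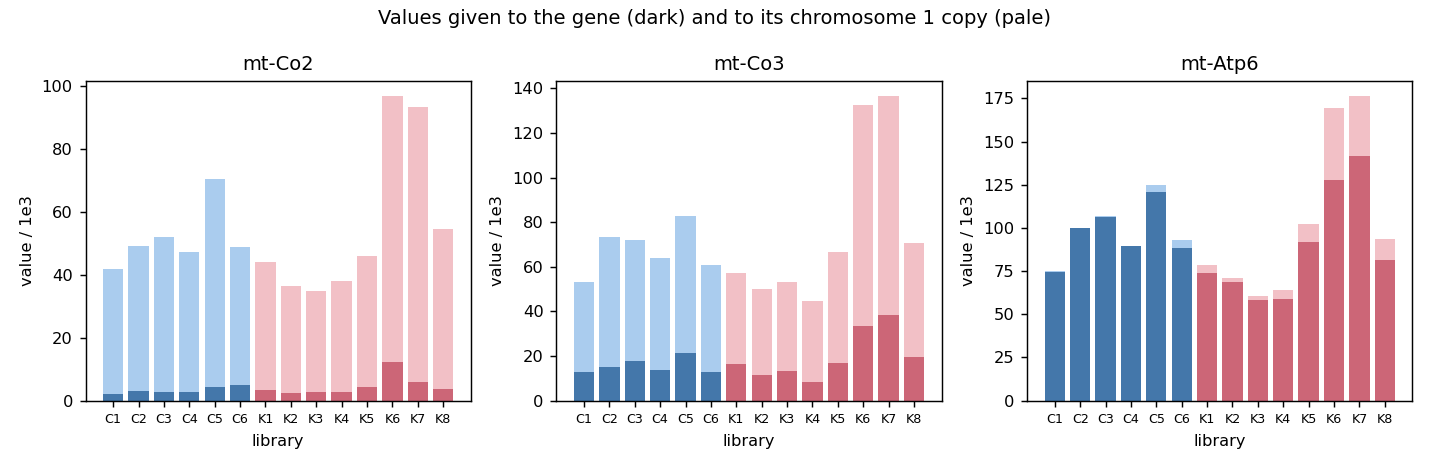
Values of mt-Co2, mt-Co3 and mt-Atp6 (dark) with those of their chromosome 1 copies stacked on top (pale), with 1 bar per library (C1 to C6, controls; K1 to K8, knockouts). The copy holds 87.3% to 95.2% of the mt-Co2 pair and 71.4% to 80.9% of the mt-Co3 pair, and for mt-Atp6 it is largest in knockout 6, at 24.6%.

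Per kilobase of gene, with the copies added, control levels were highest for mt-Co1, at 202035 ± 21265 per kilobase (SD, n = 6). Next came mt-Atp8 (161236 ± 47831) and mt-Atp6 (144121 ± 24842), which differed from each other by less than their SD. Lower levels per kilobase, from 56273 to 96962, were found for mt-Cytb, mt-Co3, mt-Co2, mt-Nd6, mt-Nd2, mt-Nd1, mt-Nd4 and mt-Nd5, and mt-Nd4l (39060 ± 7612) and mt-Nd3 (21723 ± 3419) were lowest. In knockouts the mean level of mt-Nd1 was 102544 ± 54353 per kilobase (SD, n = 8) and that of mt-Cytb 75910 ± 30175. The control order of this pair was the opposite, at 58523 ± 10848 for mt-Nd1 and 96962 ± 26297 for mt-Cytb (SD, n = 6).

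Nuclear genes that copy and transcribe the mitochondrial genome went both ways. Of 19 tested, 4 rose and 3 fell in limma. For this list and those that follow, 11.5% of all genes tested were called higher and 11% lower with the deposited values. Mterf4, a mitochondrial ribosome assembly factor of the transcription terminator family, rose from 552 ± 63.3 to 1005 ± 196 (log2 change 0.85, adjusted p = 0.00022), and Polg2, the accessory subunit of the mitochondrial DNA polymerase, fell from 248 ± 29.1 to 134 ± 21.6 (log2 change -0.90, adjusted p = 0.00016). Of 22 RNA processing and stability genes, 2 rose and 3 fell. Pde12, which removes poly(A) tails in mitochondria, rose from 380 ± 58.7 to 838 ± 121 (log2 change 1.14, limma adjusted p = 1.33e-05), and Grsf1, an RNA granule protein, fell from 1540 ± 144 to 942 ± 107 (log2 change -0.71, limma adjusted p = 0.00012). The groups did not overlap for any of these 4 genes, where 8.16% of all genes tested did not overlap. These 4 were the largest called changes of their lists.

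Of 22 genes that modify mitochondrial rRNA and tRNA, 4 rose and 2 fell in limma. Mrm3, a 16S rRNA methyltransferase, rose from 152 ± 7.51 to 391 ± 67.0 (log2 change 1.34, adjusted p = 1.93e-06), and Mettl15, a 12S rRNA methyltransferase, rose from 33.1 ± 7.98 to 65.9 ± 27.1 (log2 change 0.92, adjusted p = 0.010). Of 20 mitochondrial aminoacyl-tRNA synthetase genes, which charge the tRNAs, 5 rose and 3 fell, with the largest changes in Pars2 for proline (log2 change 1.54, limma adjusted p = 3.73e-05) and Ears2 for glutamate (1.28, limma adjusted p = 2.1e-05). Of 8 coactivators and nuclear factors of mitochondrial biogenesis 0 passed, with the smallest p for Gabpa (log2 change 0.15, limma adjusted p = 0.30).

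Among nuclear subunits of the respiratory complexes, the calls on the deposited scale were lower with 1 exception. For complex I, 19 of 36 fell and 0 rose in limma, where 11% of all genes tested were called lower. The median log2 change of the list was -0.29. Ndufs8 fell from 2257 ± 309 to 1529 ± 216 (log2 change -0.56, adjusted p = 0.0026) and Ndufb10 by 0.53 on the log2 scale (adjusted p = 0.0028). For ATP synthase 6 of 14 fell, among them Atp5j (log2 change -0.47, limma adjusted p = 0.0068) and Atp5l (-0.40, limma adjusted p = 0.049). For complexes III and IV 3 of 19 fell, with Uqcrh at -0.49 (limma adjusted p = 0.0015), and 1 rose, Uqcrfs1 at 0.42 (limma adjusted p = 0.0070). For complex II, which has no mitochondrial subunit gene, Sdha (-0.49, limma adjusted p = 0.0025) and Sdhb (-0.39, limma adjusted p = 0.017) fell among 4.

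These falls depended on the scale, and on the second scale each count of higher calls stands beside 33.9% of all genes tested. With each library divided by its sum outside mitochondrial and rRNA genes, 3 of the 36 complex I subunits were called higher by limma and 0 lower, and Ndufs8 was at -0.21 (adjusted p = 0.14). For ATP synthase the split was 1 higher and 0 lower, for complexes III and IV 5 higher and 0 lower, and for complex II 0 in either direction. Of the processing genes 12 were then higher and 1 lower, of the modification genes 9 and 1, of the synthetases 9 and 1, of the transcription and replication genes 6 and 1, and of the biogenesis factors 6 and 0. Polg2 (-0.55, limma adjusted p = 0.0015) and Grsf1 (-0.36, limma adjusted p = 0.0059) were called lower on this scale too. The share of all genes tested that were called lower on this scale is not given, so the lower calls have no background here.

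The effect on the mitochondrial genes was not shown to differ between the Xist classes. In a limma interaction of genotype and class, 0 of the 37 genes passed and 4 had an unadjusted p under 0.05, where 0.0552% of all genes tested passed. The interaction estimate, Xist-high minus Y-positive, was positive for 33 of the 37 and negative for 4. Its median was 0.58, against 0.05 over all genes tested. These genes share the same libraries and are not independent. Within the Y-positive libraries, which were the deeper, 8 genes were called lower, among them mt-Cytb, mt-Nd5, mt-Nd6 and mt-Te, and 0 higher, where 8.3% of all genes tested were called lower. Within the Xist-high libraries, which hold 2 controls and include knockouts 6 and 7, 0 passed in limma. Class and depth cannot be told apart here.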

How the data were processed

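Per the labels' protocols, RNA was extracted with Trizol and made into libraries with a stranded total RNA kit. Per the submitters' processing notes, kallisto, sleuth and mm10 were used, with no versions, and the strand setting is not given in the sources used here. The signal values the authors deposited are, as read from the values, estimated counts over a size factor for each library. The authors also deposited a p-value, a q-value and a natural log change for each gene. These are not counts, so no counting interval is given, and low values in shallow libraries are the least precise. The members and gene lists were chosen with earlier results of these data known. Genes reaching a value of 10 in 6 or more libraries were tested with limma 3.58.1 in R 4.3.3 on log2(value + 1) with a trended prior. Benjamini-Hochberg adjustment ran over all genes tested, and genes at or under 0.05 were called. Fold changes are on that scale, which understates those of low genes. Nuclear copies were matched to mitochondrial genes at 90% identity or more, which gave 16, and the 7 on chromosome 1 were summed into their genes. The nuclear genes named are, for each list, the 2 with the largest change among those called, or the one with the smallest p. Copies other than the 3 most abundant were named after their values were seen. The test was checked on simulated data. Alternatives covered scaling, pseudocount, filter, prior, array weights, threshold, covariates, a replicate block, Xist classes and left-out libraries. Summing the copies, the classes, class covariate and block for values relative to the mRNA sum, and the subsets and scalings for the nuclear lists were added after the data had been seen.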

Additional observations from a re-analysis of the deposited data

Results flagged for a closer look

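Of 124 groups of libraries examined, 11 held 1 library far from the others, by a gap to the nearest library that exceeded the 95% limit of Dixon's test. Chance alone gives about 1 such group in 20. Control 1 stood high for mt-Tl1, at 355, and for mt-Tg, at 7997. Knockout 4 stood high for mt-Tv, at 2957.5, for mt-Tl1 at 169, for mt-Tm at 688, for mt-Tw at 421 and for mt-Tg at 3226. Control 5 stood high for mt-Nd1, at 76974, for mt-Cytb, at 167638, and for the mt-Co2 copy Gm28661, at 66229. Knockout 6 stood high for mt-Co2, at 12309. These genes share libraries, so the far values are not independent.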

How the results depend on the processing

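The 3 tRNA calls and the counts depended on the processing; the cause was not tested. The count of 3 genes called among 37 was 0 without a filter and 0 at an adjusted p of at most 0.01. With a minimum of 100 it was 1, but only 30 of the 37 were then tested, without mt-Ti and mt-Tr. The count was 7 with the replicate block, 8 with Y-positive libraries alone and 0 with Xist-high ones alone. It was 7 without knockouts 6 and 7 (also with copies added) and 0 to 4 with each library left out. All these calls were lower, and quantile normalization gave 3 lower and 1 higher. The count was 2 higher and 0 lower under both scalings to a sum outside rRNA genes, also with copies added. Relative to the mRNA sum, 0 became 2 without knockouts 6 and 7 (also with copies added), 1 without knockouts 3, 6 and 7, 2 in Y-positive libraries, 1 with the Xist class as a covariate, 2 with the replicate block and 0 to 1 with each library left out. The median over the 13 mRNAs, -0.11, became 0.23 and 0.24 under the scalings, 0.42 under quantile normalization, -0.39 in Y-positive libraries and 0.32 with copies added and scaled. Of the 166 nuclear genes in the 9 lists 57 were called, where 11.5% of all genes tested were called higher and 11% lower. The 57 became 4 in Xist-high libraries and 28 at an adjusted p of at most 0.01. For most settings of this section the share of all genes called is not given. The counts are thus not set against a background. Mettl3 was at -1.03 in Xist-high libraries, short of the threshold. The replicate numbers were not taken to pair the samples. Same-numbered libraries had correlations of 0.071 to 0.23, and 2 of 6 controls correlated best with their own number, so pairing was neither shown nor excluded. With the replicate block the 7 called were mt-Tf, mt-Tg, mt-Th, mt-Ti, mt-Tk, mt-Tm and mt-Tw, and mt-Tr did not pass. The following changes of sign concern genes that passed in neither setting. With the replicate block the log2 change was -0.0429 for mt-Rnr1, -0.17 for mt-Atp8 and -0.0152 for mt-Co3. In Y-positive libraries alone the log2 change was -0.0219 for mt-Rnr1, -0.0446 for mt-Nd2, -0.39 for mt-Atp8, -0.28 for mt-Co3 and -0.0367 for mt-Nd3, and the log2 change was 0.00893 for mt-Co1 relative to the mRNA sum and 0.0443 for mt-Nd4l relative to that sum. Without knockouts 6 and 7 the log2 change was -0.00979 for mt-Rnr1, -0.0399 for mt-Nd2, -0.0017 for mt-Co2, -0.32 for mt-Atp8 and -0.14 for mt-Co3, and the change relative to the mRNA sum was 0.0209 for mt-Nd4l. With log2 reads as a covariate the log2 change was -0.0431 for mt-Rnr1, 0.0988 for mt-Tc, 0.18 for mt-Ty, -0.25 for mt-Atp8 and -0.017 for mt-Co3. With libraries scaled to the sum outside rRNA the log2 change was 0.31 for mt-Rnr2, 0.33 for mt-Tc, 0.30 for mt-Ty, 0.19 for mt-Co1, 0.33 for mt-Ts1, 0.13 for mt-Td, 0.15 for mt-Atp6, 0.23 for mt-Nd4l, 0.00441 for mt-Nd4, 0.18 for mt-Ts2, 0.0383 for mt-Nd5, 0.0448 for mt-Te and 0.0934 for mt-Tt. With the sum outside all mitochondrial and rRNA genes the log2 change was 0.33 for mt-Rnr2, 0.34 for mt-Tc, 0.32 for mt-Ty, 0.21 for mt-Co1, 0.34 for mt-Ts1, 0.14 for mt-Td, 0.16 for mt-Atp6, 0.24 for mt-Nd4l, 0.0198 for mt-Nd4, 0.19 for mt-Ts2, 0.0537 for mt-Nd5, 0.00878 for mt-Nd6, 0.0602 for mt-Te and 0.11 for mt-Tt. With quantile normalization the log2 change was 0.33 for mt-Rnr2, 0.26 for mt-Co1, 0.00341 for mt-Ts1, 0.42 for mt-Atp6, 0.23 for mt-Nd4l, 0.20 for mt-Nd4, 0.25 for mt-Nd5, 0.30 for mt-Nd6 and 0.13 for mt-Cytb. In Xist-high libraries alone the log2 change was 0.0394 for mt-Rnr2, 0.0144 for mt-Tl1, 0.055 for mt-Ta, 0.61 for mt-Tc, 0.75 for mt-Ty, 0.0744 for mt-Co1, 0.18 for mt-Ts1, 0.0628 for mt-Atp6, 0.13 for mt-Ts2, 0.0625 for mt-Nd5, 0.10 for mt-Te, 0.80 for mt-Tt and 0.11 for mt-Tp. Without knockouts 3, 6 and 7 the log2 change was -0.0237 for mt-Nd2, -0.24 for mt-Atp8 and -0.13 for mt-Co3, and the change relative to the mRNA sum was 0.068 for mt-Nd4l. With the Xist class as a covariate the log2 change was 0.0287 for mt-Tc, 0.0399 for mt-Ty and -0.11 for mt-Atp8. With copies added and scaled outside mitochondrial and rRNA genes the log2 change was 0.20 for mt-Co1, 0.32 for mt-Atp6, 0.0736 for mt-Nd4l and 0.0237 for mt-Nd4. With copies added and without knockouts 6 and 7 the log2 change was -0.29 for mt-Co2 and -0.25 for mt-Co3, and the change relative to the mRNA sum was 0.0121 for mt-Atp6. With array weights the log2 change was -0.13 for mt-Atp8. With copies added the change relative to the mRNA sum was 0.0398 for mt-Atp6. With each library left out in turn the log2 change ran from -0.0371 to 0.24 for mt-Rnr1, from -0.28 to 0.13 for mt-Rnr2, from -0.0323 to 0.69 for mt-Tq, from -0.19 to 0.0853 for mt-Tc, from -0.29 to 0.13 for mt-Ty, from -0.12 to 0.12 for mt-Ts1, from -0.37 to 0.0257 for mt-Td, from -0.13 to 0.18 for mt-Atp8, from -0.23 to 0.0521 for mt-Nd4l and from -0.0746 to 0.0692 for mt-Nd4l relative to the mRNA sum. Depth limits the lowest tRNAs, such as mt-Td at 4.35 to 20.3.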
